A study of Mus musculus with 12 samples.

Results

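Phosphodiesterases are the enzymes that break the cyclic phosphate bond of cAMP and cGMP and so end the signals that these messengers carry. In the heart cAMP drives the rate and force of the beat downstream of adrenergic receptors, and cGMP is made in answer to nitric oxide and natriuretic peptides. The families differ in what they cut and in what controls them: PDE1 enzymes are switched on by calcium and calmodulin and cut both messengers, PDE2 is stimulated by cGMP, PDE3 cuts cAMP and is held back by cGMP, PDE4 is specific for cAMP and PDE5 for cGMP. The genes described here are 10 phosphodiesterase genes of these families, Pde1a, Pde1b, Pde1c, Pde2a, Pde3a, Pde3b, Pde4a, Pde4b, Pde4d and Pde5a, among the 40690 gene identifiers of the table.

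Right atrial RNA of mice was sequenced in 6 control and 6 iNICD libraries. The animals were littermates, were 2 to 3 months old when doxycycline chow began, ate it for 3 weeks, controls included, and went off it at no point before the atria were taken. The title of the series concerns transient Notch activation. No label names the alleles, the promoter behind iNICD, the strain or the sex of the mice, nor whether each library is a single animal, so every error below measures the spread between these libraries, which may in part be technical.

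The 10 genes were chosen by symbol, with earlier results on the same 12 libraries known; no measured threshold separates members from non-members, and no independent samples are at hand. Levels and differences of the members between iNICD and control are therefore given as a description, without p-values. Where a member is said to be called, in the main fit or under another setting, this too is a description. Values are CPM, read counts scaled to the size of each library, deposited by the authors. A difference is the iNICD mean minus the control mean of log2(CPM + 0.5), with its standard error (SE), and a gene is called where limma's Benjamini-Hochberg adjusted p over the 14336 genes tested is under 0.05.

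The libraries held 12015650 to 22716190 assigned reads. Notch1, the check of the labels, lay at 192 to 293 CPM in the controls and at 3064 to 5358 CPM in iNICD. Markers of atrial cardiomyocytes were abundant in both groups, but their summed level was 74244 to 79147 CPM in controls and 55595 to 63468 CPM in iNICD, and 4 of 7 of them (Nppa, Myl7, Myl4 and Sln) were called lower. Xist RNA, made from the inactive X chromosome, was high in controls 1, 2, 3 and 5 and in iNICD 1, 2 and 3. It was low in the other libraries. Both groups thus mixed high and low libraries, 4 and 2 in the controls and 3 and 3 in iNICD. Control 3, iNICD 3 and iNICD 5 held 20234, 30814 and 21474 CPM of the transcript Gm42418, more than the other libraries. Control 4 stood apart from the other controls in several members: it was the lowest control for Pde1c, Pde3a, Pde4a, Pde4d and Pde5a and the highest for Pde1b and Pde4b. These values are taken up beside the results they touch.

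Pde1b, which encodes a calcium and calmodulin activated phosphodiesterase, was the member that stood apart. It lies on the plus strand of chr15:103503034-103530052 (GRCm38, GENCODE M21). RefSeq (GRCm38.p6) gives 3 start sites, and the windows from 250 bases before to 50 bases after the first and the last of them are shown because Pde1b is the member with the large difference and because Notch acts through the DNA-binding protein Rbpj. The capitals mark TTCCCA, the reverse complement of TGGGAA, the core of the Rbpj site, which begins 172 bases before the last start. The window at the start between them holds no match.
Pde1b first start, chr15:103502784-103503083, plus strand: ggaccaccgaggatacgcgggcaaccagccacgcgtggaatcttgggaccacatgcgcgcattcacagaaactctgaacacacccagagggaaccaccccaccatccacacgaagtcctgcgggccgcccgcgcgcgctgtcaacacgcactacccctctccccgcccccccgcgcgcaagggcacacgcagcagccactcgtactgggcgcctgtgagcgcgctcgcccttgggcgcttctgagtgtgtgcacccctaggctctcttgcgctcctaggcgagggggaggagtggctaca
Pde1b last start, chr15:103514727-103515026, plus strand: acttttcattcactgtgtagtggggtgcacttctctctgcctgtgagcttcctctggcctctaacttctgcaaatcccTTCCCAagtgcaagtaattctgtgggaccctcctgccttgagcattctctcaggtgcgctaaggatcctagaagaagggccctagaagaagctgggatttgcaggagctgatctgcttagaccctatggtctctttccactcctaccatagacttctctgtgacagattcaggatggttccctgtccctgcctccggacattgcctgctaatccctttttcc
TGGGAA on either strand is in 25.6% of the 32851 windows of this length in the RefSeq table, and in 8 of the 24 windows found for 8 of the members (Pde3a and Pde3b had no entry). The longer form GTGGGAA, which contains the core, is in 6.38% of all windows and the cAMP response element TGACGTCA in 1.79%; neither is in a member's window. A match is a description of the letters in these windows and says nothing of binding.

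In the controls Pde1b was at 4.09, 3.58, 4.40, 4.84, 4.24 and 2.49 CPM in libraries 1 to 6. In iNICD it was at 19.8, 17.0, 29.7, 26.8, 18.0 and 22.4 CPM. The groups did not overlap, and the lowest iNICD library lay far above the highest control. The means were 3.94 ± 0.821 CPM (SD, n = 6) and 22.3 ± 5.04 CPM (SD, n = 6), a ratio of 5.66. The log2 difference was 2.35 (SE 0.16), with a 95% interval from 2.01 to 2.70. Between 42 and 93 reads lay behind each control value and between 211 and 416 behind each iNICD value, so that the relative counting error was larger in the controls. By size of difference Pde1b stood at the 99.8th percentile of the genes tested. In bulk tissue more RNA per cell and more cells that express the gene cannot be told apart.

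Pde1b was the only member called, 1 of 10, where 6.71% of all genes tested were called in either direction. It was also the only one whose groups did not overlap, where 4.59% of all genes tested had groups that did not overlap; nothing is read from these counts, because the members were chosen with this contrast known. The median difference of the members was -0.10 on the log2 scale, against 0.05 for all genes tested, and 4 of the 10 members had a positive value.

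**Figure D1:**
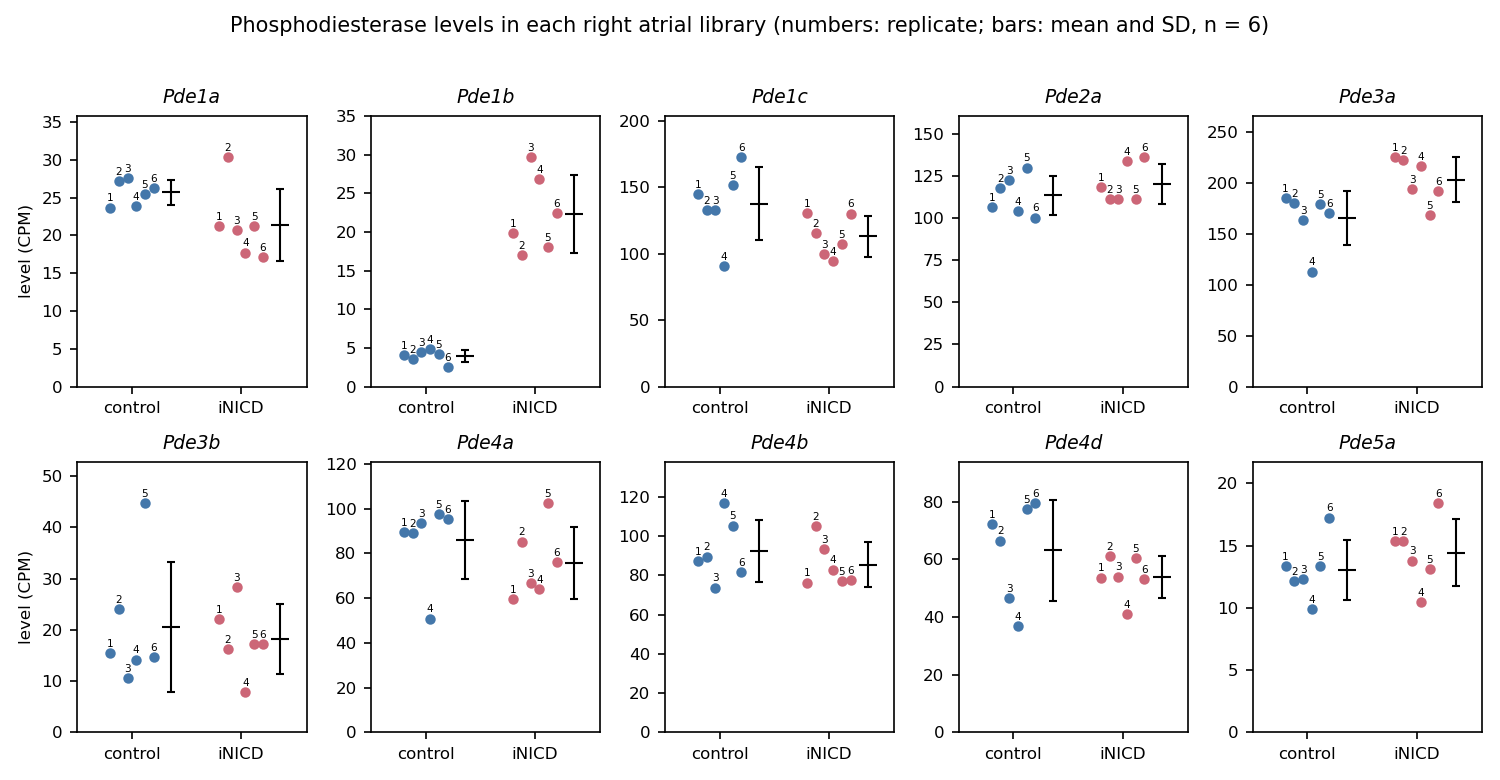
Level in CPM (vertical axes, each from 0) of the 10 phosphodiesterase genes in the 6 control (blue) and 6 iNICD (red) libraries; numbers give the replicate, and the black dash and bar the mean and SD. Pde1b separates into 2.49 to 4.84 CPM and 17.0 to 29.7 CPM, while the groups of the other 9 genes overlap.

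The difference of Pde1b was 2.27 (SE 0.18) among the libraries high in Xist and 2.50 (SE 0.30) among those low in Xist, where 2 controls met 3 iNICD libraries. Without the 3 libraries rich in Gm42418 it was 2.35 (SE 0.19). Without control 4 it was 2.41 (SE 0.16). Over the 27 alternatives run the value lay between 2.02 and 2.50, and Pde1b was called in each. These refits reuse the libraries known when the members were chosen. They describe how the value depends on the settings and are no test of the difference.

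Some markers of other cell types also differed between the groups, where 6.71% of all genes tested were called. Of 6 macrophage markers 4 (Adgre1, Fcgr1, Csf1r and C1qa) were called higher, and their summed level was 308 to 392 CPM in the controls and 377 to 537 CPM in iNICD. Of 7 lymphocyte markers 2 could be tested and Lck was called higher (log2 difference 1.10, limma adjusted p = 0.010). The B cell markers Cd79a and Ms4a1 were below 1 CPM in every library. The lymphocyte sum was 2.74 to 4.10 CPM in controls and 4.43 to 7.73 CPM in iNICD. The neuron marker sum went the other way, at 22.6 to 39.8 CPM in controls and 11.0 to 21.8 CPM in iNICD. Its means were 30.8 and 17.5 CPM, and much of that gap came from Dbh, with means of 13.3 and 4.15 CPM. Of 7 neuron markers 5 could be tested, and 1, Dbh, was called lower (-1.54, limma adjusted p = 0.0016). None of the 5 had a positive difference, but that of Uchl1 was -0.03. Chat was below 1 CPM throughout. Of 8 sinus node markers, Vsnl1 was called higher (1.36, adjusted p = 0.00047), and Tbx3 (-0.71, adjusted p = 0.00028) and Cpne5 (-1.28, adjusted p = 0.041) lower. The sinus node sum was 114 to 233 CPM in controls and 102 to 192 CPM in iNICD. All 6 fibroblast markers had positive differences, of which Tcf21 was called (0.25, adjusted p = 0.048), and their sum was 1570 to 1981 CPM in controls and 1710 to 2465 CPM in iNICD. No endothelial, adipocyte, glial or mesothelial marker was called by limma, and 1 of these, an endothelial one, had an unadjusted p under 0.05. The part of these cell types in the Pde1b difference was not tested.

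The other PDE1 genes showed no such difference. Pde1a, which prefers cGMP, was at 23.7, 27.2, 27.6, 23.9, 25.5 and 26.2 CPM in the controls and at 21.2, 30.4, 20.7, 17.7, 21.3 and 17.1 CPM in iNICD. All iNICD libraries but iNICD 2 lay below every control, and iNICD 2 lay above them all. The log2 difference was -0.28 (SE 0.12), and -0.39 without iNICD 2, when Pde1a was called.

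Pde1c, which cuts cAMP and cGMP about equally, was the most abundant of the PDE1 genes in CPM. It was at 145, 133, 133, 90.8, 152 and 173 CPM in the controls and at 131, 116, 99.6, 94.8, 107 and 130 CPM in iNICD. Control 4 was below every iNICD library, and the other 5 controls were above them all. The difference was -0.27 (SE 0.13), and -0.38 without control 4, when Pde1c was called.

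Per kilobase of exon, Pde1b made up 6.33% ± 1.97 (SD, n = 6) of the summed level of the 3 PDE1 genes in the controls, with a range of 3.44% to 9.55%. In iNICD its share was 31.1% ± 7.0 (SD, n = 6), with a range of 22.6% to 39.6%. The shares did not overlap. They depend on the exon lengths used, the union over all transcripts in GENCODE M21: 20.1 kilobases for Pde1c, 6.01 for Pde1a and 5.40 for Pde1b. Without division by length the means of Pde1b, Pde1a and Pde1c were 3.94, 25.7 and 138 CPM in the controls. In iNICD they were 22.3, 21.4 and 113 CPM, so that Pde1b is a smaller part of the sum in CPM.

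Pde2a, the phosphodiesterase that cGMP stimulates, differed little. It was at 107, 118, 123, 105, 130 and 100.4 CPM in the controls and at 119, 111, 112, 134, 111 and 136 CPM in iNICD. The difference was 0.08 (SE 0.08), with an interval from -0.09 to 0.26 that leaves room for a small difference either way. It was -0.06 among libraries high in Xist and 0.31 among those low in Xist; this contrast between the strata was not tested. In GENCODE M21, 95.6% of the exon bases of Pde2a also belong to another gene entry of the same name, and 150 bases overlap Arap1 on the same strand. That other entry is not among the deposited identifiers, and the annotation behind the counts is not given. How far either overlap touches the level of Pde2a was not tested.

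Pde3a, the main cardiac gene for the cAMP phosphodiesterase that cGMP inhibits, had the highest CPM of the members. It was at 186, 180, 164, 113, 180 and 171 CPM in the controls and at 226, 222, 194, 217, 169 and 192 CPM in iNICD. All iNICD libraries but iNICD 5 were above every control, and control 4 was far below the other controls. The difference was 0.31 (SE 0.12), 0.20 without control 4 and 0.34 with Xist as a covariate, when Pde3a was called. The antisense gene Gm28523, which overlaps 741 exon bases of Pde3a, reached at most 1.73 CPM.

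Pde3b, best known from adipocytes and pancreatic beta cells, was the most variable member. It was at 15.4, 24.1, 10.5, 14.2, 44.7 and 14.6 CPM in the controls and at 22.0, 16.2, 28.4, 7.86, 17.2 and 17.2 CPM in iNICD. Its coefficient of variation was 61.4% in the controls and 37.5% in iNICD, against 6.41% to 27.7% for the other members. The difference of -0.10 (SE 0.35) was small beside this spread and became 0.15 without control 5. The summed level of 6 adipocyte markers was 20.4 to 82.1 CPM in controls and 11.7 to 100.4 CPM in iNICD, and the part of adipocytes in the spread of Pde3b was not tested.

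The PDE4 genes, whose products are tied by anchoring proteins to adrenergic receptors and ion channels, all had small negative differences. Pde4a was at 89.7, 89.2, 93.4, 50.9, 97.5 and 95.4 CPM in the controls and at 59.7, 85.3, 66.9, 63.9, 103 and 76.1 CPM in iNICD. Control 4 was below every iNICD library, and iNICD 5 was above every control. The difference was -0.17 (SE 0.17), and -0.32 without control 4. It was -0.40 (SE 0.11) among libraries high in Xist, when Pde4a was called, and 0.19 (SE 0.30) among those low in Xist, which include control 4.

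Pde4b was at 87.4, 89.5, 73.8, 117, 105 and 81.6 CPM in the controls and at 76.3, 105, 93.3, 83.0, 77.3 and 77.6 CPM in iNICD, with a difference of -0.11 (SE 0.11). Pde4d was at 72.3, 66.5, 46.6, 36.8, 77.3 and 79.5 CPM in the controls and at 53.6, 61.2, 54.0, 41.0, 60.3 and 53.0 CPM in iNICD, with a difference of -0.19 (SE 0.18). In both genes the iNICD range lay within the control range. For Pde4d the controls spread more, with 2 controls below most iNICD libraries and 4 above all of them.

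Pde5a, the cGMP-specific phosphodiesterase that sildenafil inhibits, was at 13.3, 12.2, 12.3, 9.94, 13.3 and 17.3 CPM in the controls. In iNICD it was at 15.4, 15.4, 13.8, 10.4, 13.1 and 18.4 CPM. The difference was 0.14 (SE 0.14). The groups covered nearly the same range, and the 95% interval ran from -0.16 to 0.43.

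Among libraries high and low in Xist, the differences were -0.13 and -0.42 for Pde1a, -0.29 and -0.19 for Pde1c, and 0.27 and 0.46 for Pde3a, each of the same sign in both. Pde4d (-0.20 and -0.09) and Pde5a (0.21 and 0.05) also kept their sign. Pde3b (0.08 and -0.11) and Pde4b (0.04 and -0.30) did not. Differences between the strata were not tested.

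**Figure D2:**
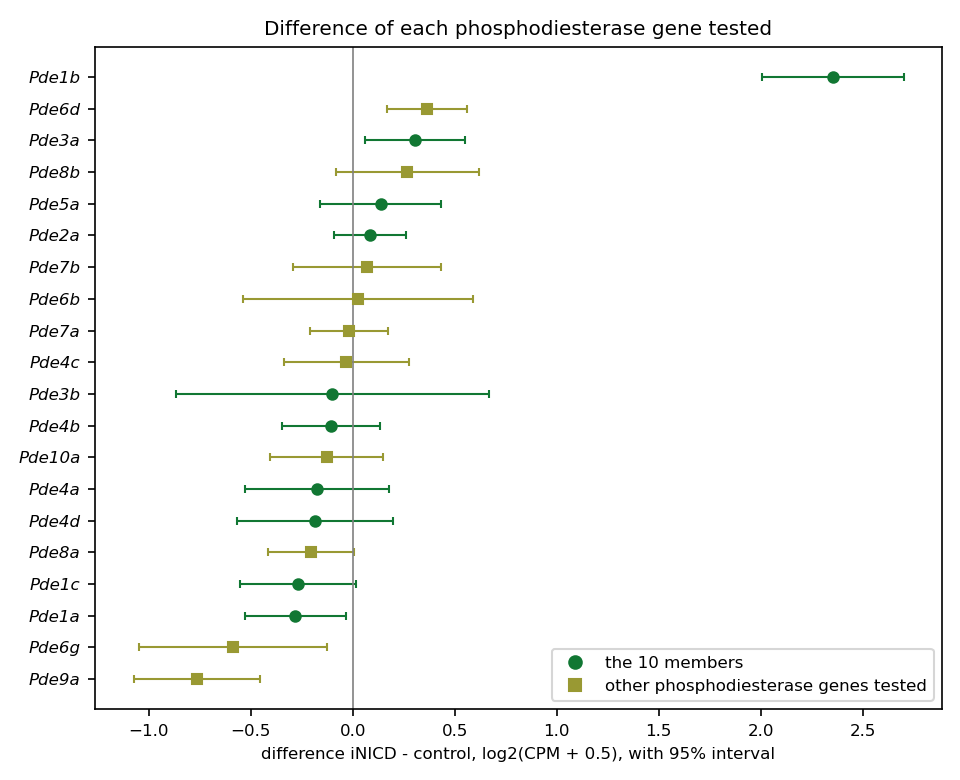
Log2 difference between iNICD and control (horizontal axis, log2(CPM + 0.5), with 95% intervals from limma) of the 10 members (circles) and the 10 other phosphodiesterase genes tested (squares), in order of size. Pde1b lies at 2.35 and Pde9a at -0.77, and the other genes lie between -0.59 and 0.36.

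To compare levels between genes, CPM were divided by the union of exon lengths in GENCODE M21, an annotation that need not be the authors' own. In the controls Pde2a was highest at 27.5 ± 2.82 CPM per kilobase (SD, n = 6), followed by Pde3a (13.0 ± 2.11), Pde4a (11.2 ± 2.29), Pde4b (8.75 ± 1.51), Pde1c (6.86 ± 1.36), Pde4d (5.26 ± 1.46), Pde1a (4.27 ± 0.274), Pde3b (2.26 ± 1.39), Pde5a (1.33 ± 0.244) and Pde1b (0.730 ± 0.152), all in CPM per kilobase. Of neighbours in this order only Pde2a and Pde3a, and Pde5a and Pde1b, had ranges that did not overlap; the ranges of the other neighbours overlapped, although Pde3a exceeded Pde4a, and Pde1c exceeded Pde4d, in 6 of 6 control libraries. In iNICD the first 6 genes kept their places. Pde1b moved from place 10 to place 7 at 4.13 ± 0.935 CPM per kilobase, in a range of 3.15 to 5.50. That range overlapped those of Pde1c (4.72 to 6.51), Pde4d (3.41 to 5.10) and Pde1a (2.85 to 5.05) but not that of Pde5a (1.06 to 1.88).

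**Figure D3:**
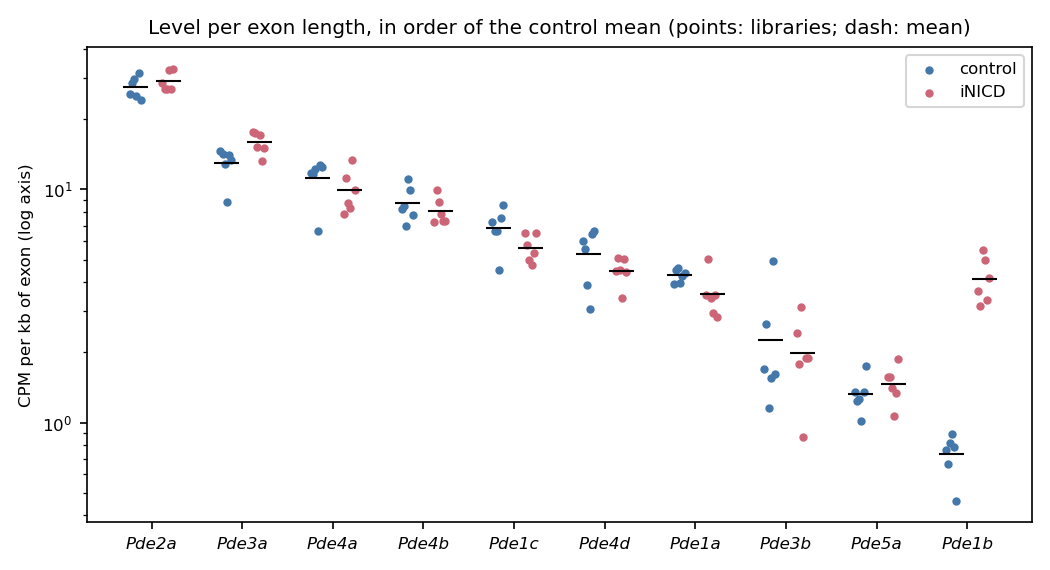
Level per kilobase of exon (vertical log axis, CPM per kb) of the 10 members in each control (blue) and iNICD (red) library, ordered by the control mean; dashes are means of 6 libraries. Pde1b is last in the controls at 0.730 and reaches 4.13 in iNICD, beside Pde4d and Pde1a.

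Members also differed in how they varied from library to library within a group. For the 3 members with the largest differences, the named genes whose deviations from the group means ran most alike over the 12 libraries were picked by Pearson's r. For Pde1b these were Hist1h4i (r = 0.88), Cwc22 (r = 0.88) and Hist1h4a (r = 0.86), none of them called. For Pde3a they were Rit1 (r = 0.98), Vps16 (r = 0.96) and Pigk (r = 0.96), none of them called. For Pde1a they were Wdr70 (r = 0.92), Rad51c (r = 0.89) and Rasgrp1 (r = 0.89), of which Rasgrp1 was called higher. These are the highest over all named genes tested, over libraries that share depth and composition effects, and are a description.

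Outside the 10 members, 10 of 14 other phosphodiesterase genes passed the filter. Of these 1 was called higher and 1 lower, where 6.71% of all genes tested were called. Their median difference was -0.02, against 0.05 for all genes tested. This list and those below are short, and their counts are a description. Pde9a, a phosphodiesterase with high affinity for cGMP, fell from 17.6 ± 3.12 to 10.2 ± 1.81 CPM (SD, n = 6 each), with a log2 difference of -0.77 (SE 0.15, limma adjusted p = 0.0042). The highest iNICD library, at 12.16 CPM, lay just below the lowest control, control 4 at 12.23 CPM. Without control 4 the difference of Pde9a was -0.86. It was -0.69 among libraries high in Xist, and -0.79 among those low in Xist, when Pde9a was not called.

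Pde6d, whose product carries prenylated proteins rather than cutting cyclic nucleotides, rose from 11.2 ± 1.05 to 14.5 ± 1.17 CPM (0.36, SE 0.09, adjusted p = 0.026). The groups did not overlap, but Pde6d was no longer called when control 3, control 5, iNICD 1 or iNICD 6 was left out (0.32 to 0.36). The cAMP-specific Pde7a, Pde7b, Pde8a, Pde8b and Pde4c had differences of -0.02, 0.07, -0.20, 0.27 and -0.03. Pde10a had a difference of -0.13, and the photoreceptor genes Pde6b and Pde6g had differences of 0.02 and -0.59. None of these 8 was called.

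On the side that makes cyclic nucleotides, 1 of 6 guanylyl cyclase genes tested was called higher and none lower, beside 6.71% of all genes called. Their median difference was 0.13, against 0.05 for all genes tested. Gucy1b3, the beta subunit of the nitric oxide receptor soluble guanylyl cyclase, rose: it lay between 63.0 and 82.3 CPM in the controls and between 163 and 257 CPM in iNICD. The means were 73.0 ± 7.56 and 208 ± 40.2 CPM (SD, n = 6 each), and the log2 difference was 1.49 (SE 0.12, limma adjusted p = 9.6e-07). Gucy1a3, its alpha partner, named here after its values were seen, was at 132 ± 32.4 and 178 ± 21.2 CPM, with a difference of 0.48 that was not called (adjusted p = 0.14) although the groups did not overlap. The natriuretic peptide receptors Npr1 and Npr2, named for their role in cGMP synthesis, had differences of -0.11 and 0.03.

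Of 8 adenylyl cyclase genes tested, 1 was called higher and 1 lower, beside 6.71% of all genes called. Their median difference was 0.11, against 0.05 for all genes tested. Adcy6, one of the main cardiac adenylyl cyclases, rose from 513 ± 47.7 to 725 ± 88.4 CPM (0.50, SE 0.09, limma adjusted p = 0.0033), with no overlap of the groups. Adcy1, a calmodulin-stimulated adenylyl cyclase, fell from 321 ± 48.1 to 239 ± 33.5 CPM (-0.42, SE 0.12, adjusted p = 0.039). The groups of Adcy1 overlapped, and it was called in 3 of the 12 fits that left out a library, those without control 4, iNICD 2 or iNICD 4; over the 12 fits its value ran from -0.52 to -0.37.

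Among 10 genes of cyclic nucleotide dependent kinases and their inhibitors, 3 were called higher and none lower, beside 6.71% of all genes called. Their median difference was 0.06, against 0.05 for all genes tested. Pkia and Pkig encode inhibitors of cAMP-dependent protein kinase. Pkia rose from 98.4 ± 13.1 to 177 ± 17.0 CPM (0.85, SE 0.09, limma adjusted p = 2.7e-05), and Pkig from 138 ± 17.8 to 194 ± 13.5 CPM (0.50, SE 0.08, adjusted p = 0.0017). Prkg1, which encodes a cGMP-dependent protein kinase, rose from 47.2 ± 5.63 to 76.3 ± 9.89 CPM (0.69, SE 0.10, adjusted p = 0.00049). In all 3 genes the groups did not overlap. Among libraries low in Xist none of the 3 was called, at 0.82 for Pkia, 0.63 for Pkig and 0.75 for Prkg1. Prkg2, the other gene of a cGMP-dependent protein kinase tested, had a difference of -0.19 and was not called. The subunit genes of cAMP-dependent protein kinase tested, Prkaca, Prkacb, Prkar1a, Prkar1b, Prkar2a and Prkar2b, were not called.

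Cspg4, a pericyte marker, was called higher in iNICD (1.86, limma adjusted p = 5.6e-06), the single one called of 6 pericyte markers; of 7 smooth muscle markers, none was called, and none was under an unadjusted p of 0.05. The pericyte sum was 592 to 703 CPM in controls and 687 to 896 CPM in iNICD. Without Cspg4, a split made after the values were seen, the sum of the other 5 pericyte markers was 487 to 632 CPM in controls and 481 to 617 CPM in iNICD. The smooth muscle sum was 627 to 1132 CPM in controls and 591 to 923 CPM in iNICD. The part of these cells in the rise of Gucy1b3 and Prkg1 was not tested.

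**Figure D4:**
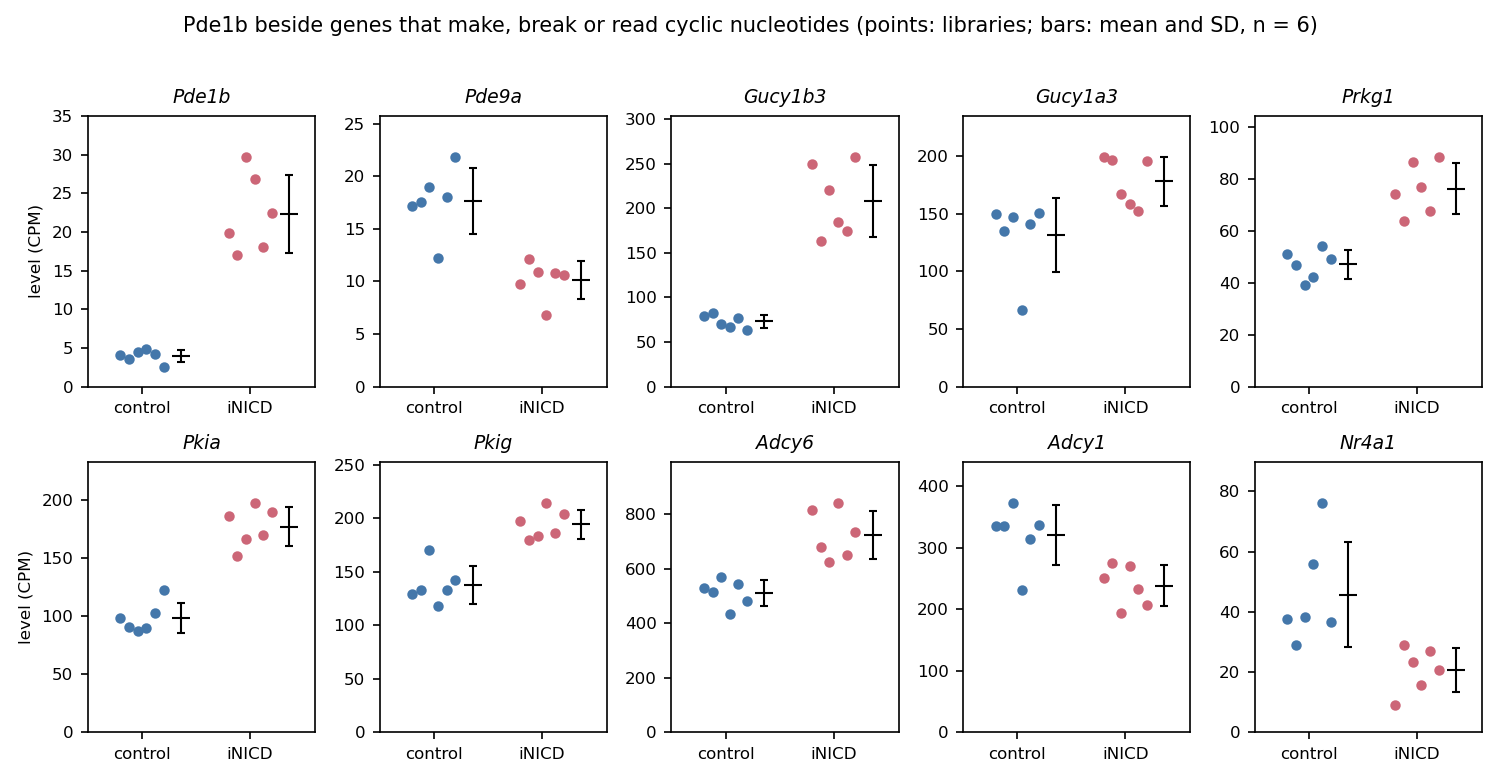
Level in CPM (vertical axes, each from 0) of Pde1b and 9 genes that make, break or respond to cyclic nucleotides in the 6 control (blue) and 6 iNICD (red) libraries, with mean and SD. The groups of Adcy1 overlap. Those of Pde1b, Pde9a, Gucy1b3, Gucy1a3, Prkg1, Pkia, Pkig, Adcy6 and Nr4a1 do not. The genes shown are a selection, all but Gucy1a3 of them called, and do not stand for the pathway as a whole. Of all genes tested, 4.59% had groups that did not overlap.

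Of 10 other effectors, among them the Hcn pacemaker channels, Rapgef3 and Rapgef4 and the Popeye genes, none was called by limma, although 3 had an unadjusted p under 0.05; edgeR called none and DESeq2 called 1. Of 15 anchoring and scaffold genes 2 were called higher, beside 6.71% of all genes called. Their median difference was 0.11, against 0.05 for all genes tested. Akap11, an anchor of cAMP-dependent protein kinase, had a difference of 0.32 (adjusted p = 0.028) and Pik3cg, whose product scaffolds phosphodiesterases in mouse heart, of 0.50 (adjusted p = 0.035). Akap11 was not called without control 2, control 3, iNICD 1 or iNICD 6 (0.28 to 0.30). Pik3cg was not called without control 5, control 6, iNICD 1, iNICD 2, iNICD 3 or iNICD 6 (0.45 to 0.51). Calm3, which encodes calmodulin, the activator of PDE1 enzymes, had a difference of 0.37 at the threshold (adjusted p = 0.0498) and, of the 12 fits that left out a library, was called in 2, those without control 3 or iNICD 3.

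Of 11 CREB factors and genes known as CREB targets, 3 were called lower and none higher, beside 6.71% of all genes called. Their median was -0.23, against 0.05 for all genes. The nuclear receptor gene Nr4a1 fell from 45.7 ± 17.4 to 20.7 ± 7.43 CPM (-1.14, limma adjusted p = 0.036), without overlap. The related Nr4a3 fell from 8.99 ± 5.63 to 2.96 ± 1.22 CPM (-1.36, adjusted p = 0.021), with control 4 highest at 19.6 CPM. Sik1, a kinase gene induced by cAMP, fell from 112 ± 29.9 to 60.8 ± 18.8 CPM (-0.90, adjusted p = 0.023). All 3 are also known as early response genes. Without control 4 the count was 1, Nr4a1 and Sik1 no longer being called at -1.07 and -0.81; Nr4a1 was called in 4 of the 12 fits that left out a library, those without control 2, iNICD 1, iNICD 2 or iNICD 5. Nr4a3 was not called without iNICD 1 (-1.32).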

How the data were processed

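Gene-level CPM of 12 right atrial libraries were deposited by the authors as 41264 rows for 40690 identifiers; 574 repeated rows were identical and used once. Alignment with STAR 2.4.0b and counting with featureCounts appear among the tools of the submitters' processing notes. The build, annotation and strand setting behind the values: not given in the sources used here. Thus antisense and overlapping genes may share reads. In each library 100% of the deposited CPM values were whole multiples of 1 read, within 0.001 reads, which gave the assigned reads (12015650 to 22716190 per library); precision is lowest for genes with few reads.

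The 14336 genes that reached 1 CPM in 6 or more libraries were tested with limma 3.58.1 in R 4.3.3 (trend and robust) on log2(CPM + 0.5), by group alone, with Benjamini-Hochberg adjustment. A fold on this scale understates the change of low genes. edgeR 4.0.16 (quasi-likelihood), run on the recovered reads, called 1018 genes against 962 by limma, and DESeq2 1.42.0 called 1425. The procedure was tested on simulated counts drawn independently for each gene and library. These carried no traits of single libraries, such as those of control 4 or the Gm42418-rich libraries, so the simulation does not cover them. Members, gene lists and tests were chosen with earlier results of these data known. Named genes were the members, Notch1, all other phosphodiesterase genes tested, at most 4 called genes of each list by smallest adjusted p, called markers, library quality genes, and 3 genes most alike to each of the 3 members with the largest differences. Exon lengths and coordinates came from GENCODE M21 (GRCm38). Other settings and single libraries left out are given at the end.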

Additional observations from a re-analysis of the deposited data

Results flagged for a closer look

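In groups of 6 libraries, a library was picked out where its gap to the nearest other library exceeded Dixon's 95% critical value for the share of the group's range. Of 66 groups examined, 4 met this, and chance alone picks out about 1 in 20. Pde1a in iNICD 2 was at 30.4 CPM, with the nearest iNICD library at 21.3 CPM. Pde3a in control 4 was at 112.9 CPM, with the nearest control at 164 CPM. Pde4a in control 4 was at 50.9 CPM, with the nearest control at 89.2 CPM. Nr4a3 in control 4 was at 19.6 CPM, with the nearest control at 9.57 CPM. Of the 4, 3 were in control 4. Its Rn7sk level, at 13562 CPM, was the highest of the 12 libraries.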

How the results depend on the processing

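The count of genes called over the table was 962; it was 1522 with array weights, 37 among libraries low in Xist, 523 without the 3 libraries rich in Gm42418, and 644 to 1214 without 1 library. The share of higher calls, 72.6%, was 61.6% (616 higher, 384 lower) with median-of-ratios scaling and 59.7% (602 and 407) with quantile normalization. Members called numbered 1, and 2 with array weights (Pde1c added), with Xist as a covariate (Pde3a), among libraries high in Xist (Pde4a), and 1 to 2 without 1 library.

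Other phosphodiesterase genes called numbered 2, but 1 among libraries high in Xist, 0 among those low in Xist, 1 without the Gm42418-rich libraries and 1 to 2 without 1 library. Adenylyl cyclases called numbered 2, but 1 with the replicate block, 4 with Xist as a covariate, 0 at low Xist, 1 without the Gm42418-rich libraries and 1 to 2 without 1 library. Guanylyl cyclases called numbered 1, but 2 with array weights, 2 at high Xist and 1 to 2 without 1 library. The 3 kinase genes were 0 at low Xist. Other effectors called numbered 0, but 1 with the replicate block, the Xist covariate, high Xist alone or DESeq2, and 0 to 1 without 1 library. Anchors called numbered 2, but 1 without the filter, 1 with median-of-ratios scaling, 0 at low Xist, 0 without the Gm42418-rich libraries and 0 to 2 without 1 library. CREB factors and targets called numbered 3, but 1 at high Xist, 0 at low Xist, 1 without the Gm42418-rich libraries and 1 to 3 without 1 library. The 1 calmodulin call became 0 with a pseudocount of 0.1, no filter, a minimum mean of 5 CPM, scaling by median of ratios, limma without robust estimation, the replicate block, the Xist covariate, high Xist alone, low Xist alone, edgeR and DESeq2, and 0 to 1 without 1 library. The causes were not tested, apart from fewer samples where libraries were left out; low Xist alone compares 2 controls with 3 iNICD libraries.

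Signs turned for small, uncalled differences. At low Xist Pde10a was 0.051, Pde4a 0.19, Pde4c 0.16 and Pde7a 0.068; at high Xist Pde2a was -0.064, Pde3b 0.076, Pde4b 0.041 and Pde6b -0.17. Array weights gave 0.0024 for Pde4c, -0.14 for Pde6b and -0.067 for Pde7b. Without the Gm42418-rich libraries Pde4c was 0.013 and Pde6b -0.12. Pde6b was -0.012 with median-of-ratios scaling and -0.074 with quantile normalization. Without 1 library, Pde3b ranged from -0.25 to 0.15, Pde4c from -0.099 to 0.067, Pde6b from -0.12 to 0.25, Pde7a from -0.064 to 0.047 and Pde7b from -0.041 to 0.19.

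Whether replicate numbers mark shared litters or days is not stated. The deviations of same-numbered libraries from their group means correlated at -0.01 to 0.32, over 0.1 in 4 of 6 pairs. In 3 of the 6 the own number correlated best. This falls short of every pair being over 0.1, and a pairing remains possible. With the replicate block 1091 genes and 1 member were called.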
